A study of Mus musculus with 12 samples.

Results

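The genes described here carry the Wnt signal: the secreted Wnt ligands, the R-spondins that amplify them, the Frizzled, Lrp and Lgr receptors, the secreted and membrane antagonists, and the proteins that pass the signal to the nucleus. They were chosen by name, with earlier results of these data known. The names were symbols of the array annotation made of Wnt, Fzd, Sfrp, Dkk or Rspo and a number. They were joined by Lef1, Tcf7l1, Tcf7l2, Ctnnb1, Axin1, Axin2, Lrp5, Lrp6, Lgr4, Lgr5, Sp5, Wif1, Porcn and Znrf3. Only probe sets assigned to 1 gene were used, which gave 56 genes on 108 probe sets, of 18193 genes on 34945 such probe sets. Tcf7 was also on the list and was not analysed here. Among the 56, Fzd10os is a transcript from the strand opposite Fzd10 and encodes no receptor.

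A Wnt ligand binds a Frizzled receptor together with the coreceptor Lrp5 or Lrp6, and this stops the complex built on Axin from marking β-catenin, the product of Ctnnb1, for destruction. β-catenin then acts with the TCF and LEF factors on target genes, among them Axin2, Lef1 and Sp5. R-spondins bind Lgr receptors and keep the ubiquitin ligases Rnf43 and Znrf3 from removing Frizzled from the cell surface. In the mouse fetal gonad Rspo1 and Wnt4 are known for their part in ovarian development, and in an XY gonad forced β-catenin activity is known to disturb testis formation.

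RNA of E15.5 mouse testes was read on 12 Affymetrix arrays, 3 each for Dmrt1 knockouts of the 129Sv strain, 129Sv wild types, Dmrt1 knockouts of the B6 strain and B6 wild types. The deleted gene, Dmrt1, codes for a transcription factor present in Sertoli cells and germ cells. The series text calls the removal conditional while the samples are labelled knockout, and neither a Cre driver nor the deleted part of the gene is given in the sources used here. The protocol text names P28 embryos, and the stage of the sample labels was followed. Total RNA came from whole testes, so fewer cells of a type and less RNA per cell cannot be told apart. The sample titles carry a code that differs from array to array, and the labels do not say whether it marks an animal, so p-values reflect the spread between the samples given, which may be technical.

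The median intensity of an array lay between 17.3 and 19.0, and arrays of a group correlated with r of 0.983 to 0.998. Dmrt1 fell in both strains, with intensities of 173, 145 and 181 on the 129Sv knockout arrays against 1183, 924 and 1014 on the 129Sv wild-type arrays, and of 86.4, 64.0 and 72.9 on the B6 knockout arrays against 795, 1092 and 1066 on the B6 wild-type arrays. These are log2 differences of -2.64 ± 0.17 (SE, limma adjusted p = 4.72e-07) and -3.72 ± 0.17 (SE, adjusted p = 1.97e-08). The Actb ratio, that gene's 3′ signal over its 5′ signal, a measure that goes up with RNA degradation, was 6.30 on B6 knockout replicate 3 and 5.24 on 129Sv knockout replicate 1, against 1.99 to 3.91 on the other 10 arrays. B6 knockout replicate 3 also held the highest level of the ovarian marker Foxl2, at 54.3 against at most 15.8 on the other 11 arrays, and the lowest levels of the germ cell genes Dazl and Ddx4, at 1272 and 1700. The 7 Sertoli cell markers summed to 11912 to 13308 in 129Sv knockouts against 15696 to 17716 in 129Sv wild types, and to 13925 to 15411 in B6 knockouts against 16968 to 18034 in B6 wild types, lower in knockouts without overlap in both strains. The 7 pluripotency genes summed to 5446 to 7244 in 129Sv knockouts against 661 to 842 in 129Sv wild types, and to 1420 to 3187 in B6 knockouts against 906 to 1137 in B6 wild types. In 129Sv the sums of 4 fetal Leydig cell genes (13693 to 15421 in knockouts against 17004 to 17775 in wild types) and of 5 endothelial genes (562 to 690 against 765 to 866) were also lower in knockouts. In B6 the endothelial sum was higher, at 936 to 1040.1 in knockouts against 810 to 872 in wild types, and the Leydig sums overlapped. Of the 3 tested duct and mesonephros genes, Lhx1 was 10.5-fold higher in 129Sv knockouts and 5.33-fold higher in B6 knockouts, and Pax8 was 3.69-fold lower in 129Sv knockouts. The 4 duct and mesonephros genes on the array other than Wnt genes summed to 1547 to 1729 in B6 knockouts against 1115 to 1503 in B6 wild types. In 129Sv their sums overlapped, at 996 to 1562 in knockouts against 786.5 to 1039 in wild types. These markers moved on the same arrays as the Wnt genes below, and their part in those results was not tested.

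Most Wnt ligand genes gave little signal in these testes, whereas most receptor genes passed the filter on low values. A gene was represented by its probe set with the highest mean intensity, and it was tested when at least 3 arrays reached an intensity of 16, a log2 value of 4. By this filter 40 of the 56 genes were tested, and 31 of them reached 16 on all 12 arrays. The filter passed 7 of 19 ligand genes, 4 of 4 R-spondins, 12 of 14 receptor genes, 8 of 10 antagonists, Porcn, the 3 intracellular genes, the 4 transcription factor genes and Fzd10os. Of the 16 genes that did not pass, 12 were ligand genes, Wnt1, Wnt2, Wnt2b, Wnt3a, Wnt7a, Wnt7b, Wnt8a, Wnt8b, Wnt9b, Wnt10a, Wnt10b and Wnt16, and none of these exceeded 9.56 on any array. Dkk4, Sfrp5 and Lgr5 also stayed under 16 on every array. Lgr5, an R-spondin receptor and a known Wnt target, ranged from 7.79 to 13.1 over the 12 arrays. Fzd10, singled out after its values were seen, gave 15.8, 17.9 and 13.4 on the 129Sv knockout arrays against 5.44, 6.07 and 5.99 on the 129Sv wild-type arrays. In B6 it gave 8.47, 10.8 and 14.2 on the knockout arrays against 5.67, 5.78 and 5.95 on the wild-type arrays. The knockout arrays of Fzd10 lay above the wild-type arrays in both strains, with both group means under 16 in each, so no fold is given.

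In 129Sv, knockout testes had more RNA of Rspo1, Wif1, Fzd5, Fzd7, Lef1, Sfrp2, Wnt3, Sp5, Tcf7l1 and Fzd2 and less of Rspo2 and Rspo4 than wild-type testes. In B6, knockout testes had more RNA of Wif1, Lrp5, Wnt4 and Fzd5 and again less of Rspo2 and Rspo4. A change here means a Benjamini-Hochberg adjusted p under 0.05 in a limma fit of log2 intensities over all 12726 tested genes. In 129Sv 10 of the 40 tested Wnt genes were higher and 2 lower in knockouts, against 8.31% of all tested genes called, 4.07% higher and 4.24% lower. The 10 and 2 became 5 and 2 without 129Sv wild-type replicate 1. The title number 11 stood on 129Sv wild-type replicates 1 and 3 alone, and replicate 2 and the 129Sv knockouts had 7. With that number as a covariate the 129Sv knockouts were set against wild-type replicate 2 alone. For single genes only effect sizes of that fit are therefore given, and it is among the alternatives counted at the end. The median log2 difference of the tested Wnt genes was 0.26 against -0.01 over all tested genes. In B6 4 were higher and 2 lower, with 7.9% of all tested genes called, 2.45% higher and 5.45% lower, and the median was 0.20 against 0.03. Without B6 wild-type replicate 3 these were 2 and 1. Fzd5, Rspo2, Rspo4 and Wif1 were called in the same direction in both strains. The share of all tested genes so called was not counted. The 129Sv and B6 comparisons share no arrays, but the fit estimated the spread over all 12 arrays. In B6 the calls of Rspo2 and Wif1 were lost with values under 16 set to 16. Of the 40, 19 in 129Sv and 17 in B6 had knockout arrays that did not overlap the wild types, against 28.8% and 27.7% of all tested genes. Genes that reached the filter only through the group in which they were high had to differ, so these counts describe the tested genes and not all 56. Wif1 and Fzd10os reached 16 on 5 and 4 arrays, all of them knockouts. Averaged over both strains, 13 Wnt genes were higher and 2 lower in knockouts, with 13.5% of all tested genes called, 5.62% higher and 7.88% lower. That comparison added Dkk1, Porcn, Fzd9 and Fzd10os, none of which passed in a single strain.

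**Figure D1:**
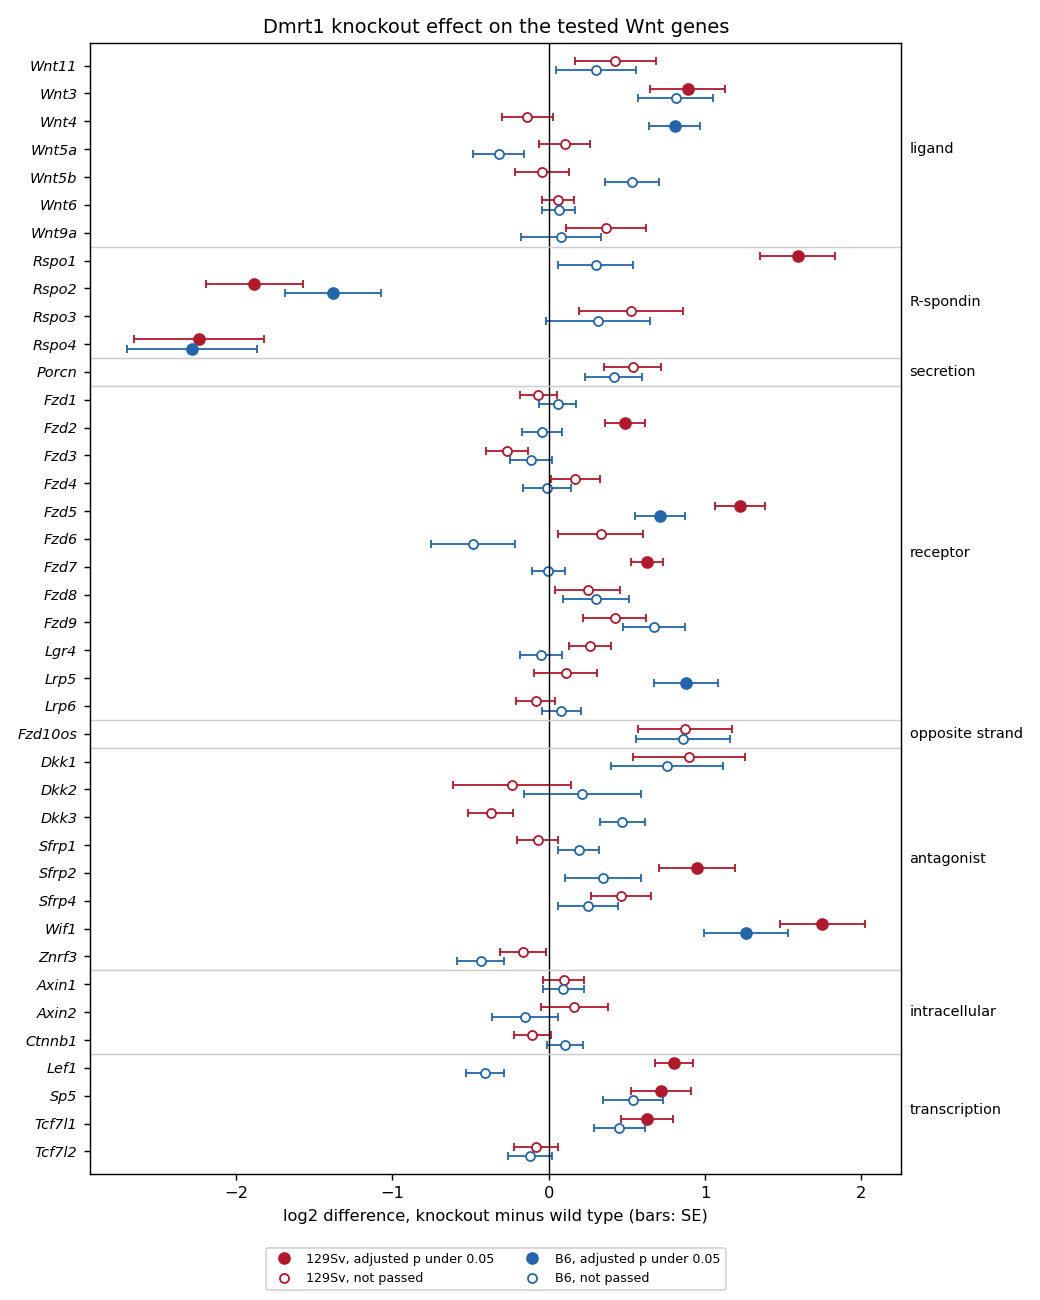
Log2 difference between knockout and wild-type testes for the 40 tested Wnt genes, with 129Sv in red above B6 in blue for each gene and bars for the SE of the limma fit (3 arrays a group). Filled points passed an adjusted p under 0.05; Rspo2 and Rspo4 lie to the left in both strains, at -1.88 and -2.24 in 129Sv and -1.38 and -2.28 in B6, while Rspo1 lies at 1.59 in 129Sv, where it passed, and at 0.30 in B6, where it did not.

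Among the ligand genes, Wnt3 was called in 129Sv knockouts and Wnt4 in B6 knockouts. Wnt3, a ligand known from the primitive streak of the mouse embryo, had intensities of 21.3, 29.9 and 25.0 in 129Sv knockouts against 13.4, 14.1 and 13.3 in 129Sv wild types. All 3 knockout arrays stood above the 3 wild-type arrays, and the log2 difference was 0.89 ± 0.24 (SE, limma adjusted p = 0.0328), at least 1.57-fold higher. The call was lost without any 129Sv array other than knockout replicate 1 (0.76 to 0.91, adjusted p = 0.0685 to 0.143). The difference was 0.83 with the title number 11 as a covariate, which leaves 129Sv wild-type replicate 2 alone in its group. "At least" marks a fold computed against 16 because the lower group's mean lay below it. In B6 the values of Wnt3 were 25.1, 24.2 and 27.8 in knockouts against 10.2, 15.2 and 20.2 in wild types, a difference of 0.81 ± 0.24 that missed the threshold (adjusted p = 0.0525). The probe set of Wnt3 is of a type that Affymetrix marks as able to match other transcripts. Over both strains the difference was 0.85 ± 0.17 (adjusted p = 0.00321).

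Wnt4, a ligand of the developing kidney and ovary, had intensities of 390.1, 419 and 368 in B6 knockouts against 264, 210.2 and 202 in B6 wild types. The groups did not overlap, and Wnt4 was 1.75-fold higher, a log2 difference of 0.81 ± 0.16 (SE, limma adjusted p = 0.00663). With single arrays left out it was 0.73 to 0.93 and the call held. Without the 2 arrays of the highest Actb ratio, a second probe set had the higher mean and stood for Wnt4. That probe set differed by 0.52 there and did not pass (adjusted p = 0.124), so probe set and arrays changed together. In 129Sv Wnt4 gave 245, 184 and 198 in knockouts against 209.6, 256 and 222 in wild types, with overlapping groups and a difference of -0.14 ± 0.16 (adjusted p = 0.713). A second probe set of Wnt4 differed by 0.38 in B6 and by -0.16 in 129Sv. The 4 ovarian markers that are not Wnt genes, Foxl2, Fst, Irx3 and Bmp2, summed to 222 to 643 in B6 knockouts against 379 to 473 in B6 wild types, and their part in the result was not tested.

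Wnt5a, a ligand known mainly for signalling without β-catenin, did not pass in either strain. It gave 2377, 2984 and 1921 in 129Sv knockouts against 2188, 2045 and 2459 in 129Sv wild types, and 3251, 2242 and 2116 in B6 knockouts against 3165, 3035 and 3124 in B6 wild types. It differed by 0.10 ± 0.16 (SE, limma adjusted p = 0.797) and -0.32 ± 0.16 (adjusted p = 0.238). Without B6 knockout replicate 1, the highest of its group, the B6 difference was -0.51 and passed (adjusted p = 0.044). Wnt6, Wnt9a, Wnt5b and Wnt11 did not pass in either strain's knockout.

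The R-spondin genes moved in opposite directions in 129Sv knockouts. Rspo1 had intensities of 369.9, 406 and 309 in 129Sv knockouts against 98.3, 120.1 and 143 in 129Sv wild types. Every knockout array exceeded every wild-type array, and Rspo1 was 3.02-fold higher, a log2 difference of 1.59 ± 0.24 (SE, limma adjusted p = 0.000629). In B6 the values were 162, 213 and 156 in knockouts against 189.9, 159.9 and 94.8 in wild types. These B6 groups overlapped, and the difference of 0.30 ± 0.24 did not pass (adjusted p = 0.457). The effect in 129Sv minus that in B6 was 1.29 ± 0.34 (adjusted p = 0.0796), and it passed at 1.59 (adjusted p = 0.0256) when B6 wild-type replicate 3, the lowest of its group, was left out. The 4 ovarian markers other than Wnt genes summed to 321 to 363 in 129Sv knockouts against 430 to 444 in 129Sv wild types, and their part in the result was not tested.

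Rspo4 had intensities of 18.1, 17.2 and 45.6 in 129Sv knockouts against 119, 127 and 99.6 in 129Sv wild types. The knockout arrays were all lower than the wild types, and Rspo4 was 4.72-fold lower, a log2 difference of -2.24 ± 0.42 (SE, limma adjusted p = 0.00307). In B6 the values were 9.37, 7.72 and 12.6 in knockouts against 29.5, 36.4 and 97.1 in wild types, at least 2.94-fold lower, with a log2 difference of -2.28 ± 0.42 (adjusted p = 0.00334). Groups were again separate, although the third replicate was well above the others in 129Sv knockouts and in B6 wild types. With the title number 11 as a covariate, which leaves 129Sv wild-type replicate 2 alone in its group, the 129Sv difference was -2.39. The difference of the effects was 0.04 ± 0.59 (adjusted p = 0.978). The promoter of Rspo4, shown because the gene fell in both strains, lies at chr2:151842677-151842976 of GRCm38.p6 on the plus strand in the RefSeq table, 250 bases before to 50 bases after the start, with 71.0% G and C and 31 CG pairs; no searched motif is in it, so it has no capitals.
Rspo4: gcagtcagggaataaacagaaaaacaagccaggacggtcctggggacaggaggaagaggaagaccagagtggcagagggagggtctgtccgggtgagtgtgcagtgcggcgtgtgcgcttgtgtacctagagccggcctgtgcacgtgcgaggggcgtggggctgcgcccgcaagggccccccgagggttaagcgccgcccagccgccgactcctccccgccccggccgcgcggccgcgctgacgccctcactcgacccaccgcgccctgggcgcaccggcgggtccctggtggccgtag

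Rspo2, which mouse genetics ties to limb and lung growth, was near the lower limit of measurement. It gave 10.7, 9.09 and 16.6 in 129Sv knockouts against 51.1, 49.3 and 32.1 in 129Sv wild types, and 3 of the 5 arrays on which it reached 16 were 129Sv wild types. The groups did not overlap, with a log2 difference of -1.88 ± 0.31 (SE, limma adjusted p = 0.00118), at least 2.70-fold lower. Rspo2 in B6 gave 4.12, 4.33 and 6.63 in knockouts against 8.87, 13.9 and 16.9 in wild types. That difference of -1.38 ± 0.31 was called (adjusted p = 0.0128), but both group means were under 16 and no fold is given. It shrank to -0.03 (adjusted p = 0.949) with all values under 16 set to 16, and the call was lost without B6 wild-type replicate 2 or 3 (adjusted p = 0.0512 to 0.077). Rspo3, which mouse genetics ties to blood vessels and the placenta, gave 45.0, 57.3 and 44.0 in 129Sv knockouts against 21.8, 31.8 and 54.9 in 129Sv wild types, and 71.0, 96.2 and 60.3 in B6 knockouts against 69.3, 81.3 and 37.8 in B6 wild types. Its groups overlapped in both strains, and its differences of 0.53 ± 0.33 and 0.32 ± 0.33 did not pass (adjusted p = 0.411 and 0.572).

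**Figure D2:**
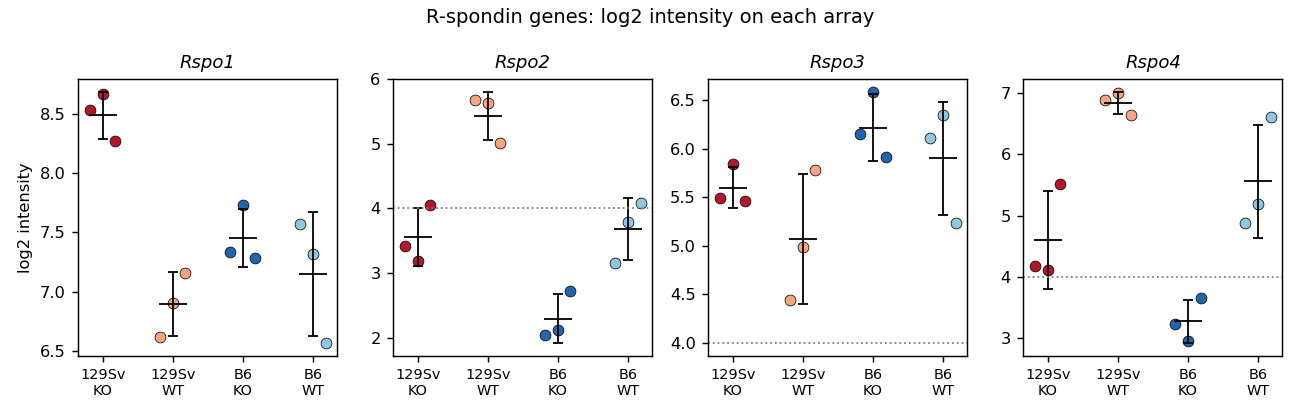
Log2 intensity of the 4 R-spondin genes on each of the 12 arrays, by group, with the mean and SD of 3 arrays as black lines and a log2 value of 4 dotted where the axis reaches it. Rspo1 stands apart in 129Sv knockouts, where it reached 309 or more against at most 213 on the other 9 arrays, while Rspo2 and Rspo4 are lower in knockouts than in wild types of the same strain.

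Porcn, which attaches the lipid that Wnt ligands need for secretion, had intensities of 50.9, 47.4 and 54.3 in 129Sv knockouts against 37.7, 36.5 and 31.1 in 129Sv wild types. In B6 it had 41.9, 37.6 and 48.6 in knockouts against 32.5, 28.6 and 34.5 in wild types. The knockout arrays lay above the wild-type arrays in both strains; neither strain passed alone (adjusted p = 0.0881 and 0.175), and the average effect of 0.48 ± 0.13 did (SE, limma adjusted p = 0.0224). That call was lost without 129Sv knockout replicate 1 or 129Sv wild-type replicate 3 (adjusted p = 0.0504 to 0.0771) and with the title number 11 (adjusted p = 0.133) or the Actb ratio (adjusted p = 0.0687) as a covariate.

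Of the receptor genes, Fzd5 changed in both strains, Fzd7 and Fzd2 in 129Sv and Lrp5 in B6. Fzd5, a Frizzled receptor, gave 239.7, 257 and 232 in 129Sv knockouts against 119.9, 94.3 and 99.3 in 129Sv wild types. With no overlap between the groups it was 2.33-fold higher, a log2 difference of 1.22 ± 0.16 (SE, limma adjusted p = 0.000201). Fzd5 in B6 gave 237, 215 and 210.4 in knockouts against 121, 156 and 128 in wild types, 1.64-fold higher at 0.71 ± 0.16 (adjusted p = 0.0128), again without overlap. The B6 call was lost without B6 wild-type replicate 3 (adjusted p = 0.0669) and when only the B6 arrays were fitted (adjusted p = 0.0641). A second probe set of Fzd5 gave 33.7, 27.5 and 24.5 in 129Sv knockouts against 6.63, 7.52 and 6.12 in 129Sv wild types, and at most 8.60 on the B6 arrays. The Fzd5 promoter, shown for the same reason as that of Rspo4, lies at chr1:64737701-64738000 on the minus strand in the RefSeq table, has 75.7% G and C and 38 CG pairs, and holds no searched motif.
Fzd5: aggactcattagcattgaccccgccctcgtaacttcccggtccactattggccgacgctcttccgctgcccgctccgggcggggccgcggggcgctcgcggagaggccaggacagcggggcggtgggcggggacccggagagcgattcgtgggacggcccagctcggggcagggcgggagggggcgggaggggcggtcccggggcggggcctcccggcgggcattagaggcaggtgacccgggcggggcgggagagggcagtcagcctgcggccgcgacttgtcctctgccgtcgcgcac

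Fzd7, a Frizzled receptor of stem and progenitor cells, gave 2405, 2549 and 2361 in 129Sv knockouts against 1746, 1371 and 1635 in 129Sv wild types. The groups were separate, and it was 1.55-fold higher, a log2 difference of 0.63 ± 0.10 (SE, limma adjusted p = 0.00128). In B6 its values of 2097, 1964 and 1899 in knockouts overlapped those of 2097, 2008 and 1862 in wild types, with a difference of -0.0012 ± 0.10 (adjusted p = 0.995). The effect in 129Sv minus that in B6 was 0.63 ± 0.15 (adjusted p = 0.0503). Fzd2 gave 2168, 2557 and 3028 in 129Sv knockouts against 1849, 1536 and 2150.0 in 129Sv wild types. Its arrays just separated, at 0.49 ± 0.13 (adjusted p = 0.0274), 1.40-fold higher, and the call was lost without 129Sv knockout replicate 2 or 3 or wild-type replicate 1 or 2 (0.36 to 0.49, adjusted p = 0.0783 to 0.119) and with the mean of its probe sets (0.43, adjusted p = 0.0505). In B6 Fzd2 gave 3538, 3507 and 3368 in knockouts against 3466, 3668 and 3584 in wild types, and its difference of -0.04 ± 0.13 did not pass (adjusted p = 0.863).

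Lrp5, a Wnt coreceptor, gave 114, 109 and 187 in B6 knockouts against 80.2, 72.3 and 64.3 in B6 wild types, 1.84-fold higher at 0.88 ± 0.20 (SE, limma adjusted p = 0.0159). The highest array was B6 knockout replicate 3, and the call was lost without B6 wild-type replicate 3 (0.80, adjusted p = 0.0847) and when the Actb ratio was a covariate (0.64, adjusted p = 0.0747). In 129Sv it gave 112, 107 and 105 in knockouts against 103, 105 and 93.1 in wild types, a difference of 0.11 ± 0.20 that did not pass (adjusted p = 0.833). Fzd9 gave 46.3, 36.1 and 45.3 in 129Sv knockouts against 30.5, 34.0 and 30.3 in 129Sv wild types, and 22.9, 23.9 and 24.8 in B6 knockouts against 12.8, 18.9 and 13.8 in B6 wild types. Knockouts were above wild types in both strains, and the average effect of 0.55 ± 0.14 passed (adjusted p = 0.0175), though not without 129Sv knockout replicate 1 or 129Sv wild-type replicate 3 (adjusted p = 0.051 to 0.0536) or when the title number 11 was a covariate (adjusted p = 0.128). Fzd10os gave 15.2, 23.0 and 20.3 in 129Sv knockouts against 11.7, 9.44 and 10.4 in 129Sv wild types, and 18.1, 13.6 and 35.0 in B6 knockouts against 13.7, 10.5 and 10.0 in B6 wild types. Its average effect of 0.87 ± 0.21 passed (adjusted p = 0.0131), and with values under 16 set to 16 it was 0.36 and did not (adjusted p = 0.185). Fzd1, Fzd3, Fzd4, Fzd6, Fzd8, Lgr4 and Lrp6 passed in neither strain's knockout, nor in the average. Fzd3 is measured by 6 probe sets, whose log2 differences ranged from -0.78 to -0.03 in 129Sv and from -0.88 to -0.12 in B6. With the mean of its probe sets Fzd3 was called lower in B6 knockouts and in the average.

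Of the antagonist genes, Wif1 was higher in knockouts of both strains and Sfrp2 in 129Sv knockouts. Wif1, a secreted protein that binds Wnt ligands, gave 32.3, 54.2 and 47.5 in 129Sv knockouts against 12.0, 11.6 and 15.8 in 129Sv wild types. All knockout arrays exceeded all wild-type arrays, at least 2.73-fold, with a log2 difference of 1.75 ± 0.27 (SE, limma adjusted p = 0.000758). Wif1 in B6 gave 15.4, 16.03 and 24.6 in knockouts against 9.34, 8.15 and 5.78 in wild types, at least 1.14-fold higher at 1.26 ± 0.27 (adjusted p = 0.00999). That B6 call was lost with values under 16 set to 16 (0.21, adjusted p = 0.556) and without B6 wild-type replicate 3 (1.06, adjusted p = 0.0629). The Wif1 promoter, shown as the last of the genes called in both strains with an entry in the table, lies at chr10:121033754-121034053 on the plus strand, has 63.0% G and C and 25 CG pairs, and holds no searched motif; Rspo2 has no sequence here.
Wif1: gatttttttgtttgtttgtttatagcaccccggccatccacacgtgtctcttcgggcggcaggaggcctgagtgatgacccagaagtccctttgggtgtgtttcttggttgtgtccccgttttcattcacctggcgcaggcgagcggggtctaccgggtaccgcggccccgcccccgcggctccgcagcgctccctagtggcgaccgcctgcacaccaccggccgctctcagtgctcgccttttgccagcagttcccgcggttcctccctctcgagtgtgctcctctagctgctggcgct

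Sfrp2, a secreted protein that resembles the ligand-binding part of Frizzled, gave 750.2, 619 and 764 in 129Sv knockouts against 256, 486 and 395 in 129Sv wild types. It was 1.93-fold higher without overlap, at 0.95 ± 0.24 (SE, limma adjusted p = 0.0243). The call was lost without 129Sv knockout replicate 1 or 3 or wild-type replicate 1 or 3 (0.69 to 1.00, adjusted p = 0.0576 to 0.13). With the title number 11 as a covariate, which leaves 129Sv wild-type replicate 2 alone in its group, Sfrp2 differed by 0.54. In B6 it gave 1250.1, 1360.4 and 2418 in knockouts against 1294, 1404 and 1096 in wild types, and the overlapping groups differed by 0.35 ± 0.24 (adjusted p = 0.388). Dkk1, a blocker of Lrp5 and Lrp6, gave 359, 138 and 234 in 129Sv knockouts against 126, 151 and 94.8 in 129Sv wild types, and 106, 115 and 180.3 in B6 knockouts against 63.9, 130.2 and 54.6 in B6 wild types. Its groups overlapped in each strain, and only the average effect of 0.83 ± 0.25 passed (adjusted p = 0.0424). It did not pass without any of 8 arrays (adjusted p = 0.0551 to 0.119), namely replicates 1 and 3 of the 129Sv groups and of B6 wild type and replicates 2 and 3 of B6 knockout. Nor did it pass with the mean of all its probe sets (0.62, adjusted p = 0.12) or with the Actb ratio as covariate (0.57, adjusted p = 0.178). Dkk3, of the same family, did not pass, at -0.37 ± 0.14 in 129Sv (adjusted p = 0.138) and 0.47 ± 0.14 in B6 (adjusted p = 0.0584). A second probe set of Dkk3 differed by -0.14 in 129Sv and by 0.003 in B6. Sfrp1, Sfrp4, Dkk2 and Znrf3 did not pass in either strain's knockout.

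Inside the cell, neither Ctnnb1, which encodes β-catenin, nor Axin2, a feedback inhibitor and common reporter of the pathway, passed in either strain. Axin2 gave 309.6, 448 and 465 in 129Sv knockouts against 380.0, 309.9 and 389 in 129Sv wild types, and 488, 467 and 282 in B6 knockouts against 408, 495 and 438 in B6 wild types. The groups overlapped in both strains, with log2 differences of 0.16 ± 0.21 (SE, limma adjusted p = 0.739) and -0.15 ± 0.21 (adjusted p = 0.68). The lowest Axin2 array of all was B6 knockout replicate 3, and without it the B6 difference was 0.10. Ctnnb1 gave 6037, 4379 and 5499 in 129Sv knockouts against 5865, 5521 and 5596 in 129Sv wild types, and 5319.7, 5716 and 7081 in B6 knockouts against 5627, 5234 and 5890.2 in B6 wild types. Its differences of -0.11 ± 0.12 and 0.10 ± 0.12 did not pass (adjusted p = 0.69 and 0.606), and their signs turned with single arrays. Other probe sets of Ctnnb1 went the other way in B6, at -0.65 and -0.31, and differed by -0.29 and -0.07 in 129Sv.

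Of the 4 transcription factor genes, 3 were called higher in 129Sv knockouts, against 4.07% of all tested genes. Of these calls, those of Sp5 and Tcf7l1 were lost with single arrays left out. Lef1, a partner of β-catenin and itself a Wnt target, gave 2976, 2989.7 and 2873 in 129Sv knockouts against 1658, 1689 and 1713 in 129Sv wild types. The groups were far apart for their spread, and Lef1 was 1.75-fold higher, at 0.80 ± 0.12 (SE, limma adjusted p = 0.000626). Lef1 in B6 gave 1429, 1264 and 1072 in knockouts against 1609, 1454 and 1932 in wild types. Here every knockout array lay below every wild-type array, and the difference of -0.41 ± 0.12 missed the threshold (adjusted p = 0.0531). It passed without B6 knockout replicate 1 or B6 wild-type replicate 2 (-0.51 and -0.50, adjusted p = 0.0253 to 0.0426). A second, dim probe set of Lef1 differed by 0.64 in 129Sv and by -0.57 in B6.

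Sp5, a target of β-catenin in mouse embryos, gave 24.9, 24.7 and 25.8 in 129Sv knockouts against 15.6, 15.4 and 14.9 in 129Sv wild types. It was at least 1.57-fold higher, at 0.72 ± 0.19 (SE, limma adjusted p = 0.0308), with narrow groups that did not overlap. The call was lost when any of the 6 129Sv arrays was left out (0.70 to 0.73, adjusted p = 0.0741 to 0.114). With the title number 11 as a covariate, which leaves 129Sv wild-type replicate 2 alone in its group, Sp5 differed by 0.71. In B6 it gave 35.6, 34.2 and 28.0 in knockouts against 22.8, 26.1 and 18.6 in wild types, at 0.54 ± 0.19 (adjusted p = 0.102), and the average of both strains was 0.63 ± 0.14 (adjusted p = 0.00558). Tcf7l1, mainly a repressor of Wnt targets, gave 580.5, 502 and 421 in 129Sv knockouts against 333, 331 and 302 in 129Sv wild types. Its groups did not overlap, at 0.63 ± 0.16 (adjusted p = 0.0268), 1.54-fold higher. That call was lost with every 129Sv array but knockout replicate 3 left out in turn (0.52 to 0.65, adjusted p = 0.0633 to 0.131). With the title number 11 as a covariate, against 129Sv wild-type replicate 2 alone, Tcf7l1 differed by 0.59. In B6 Tcf7l1 gave 423, 419.5 and 534 in knockouts against 384, 342 and 281 in wild types, at 0.45 ± 0.16 (adjusted p = 0.106), and the average was 0.54 ± 0.12 (adjusted p = 0.00529). Tcf7l2, which can activate or repress, did not pass in either strain's knockout.

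**Figure D3:**
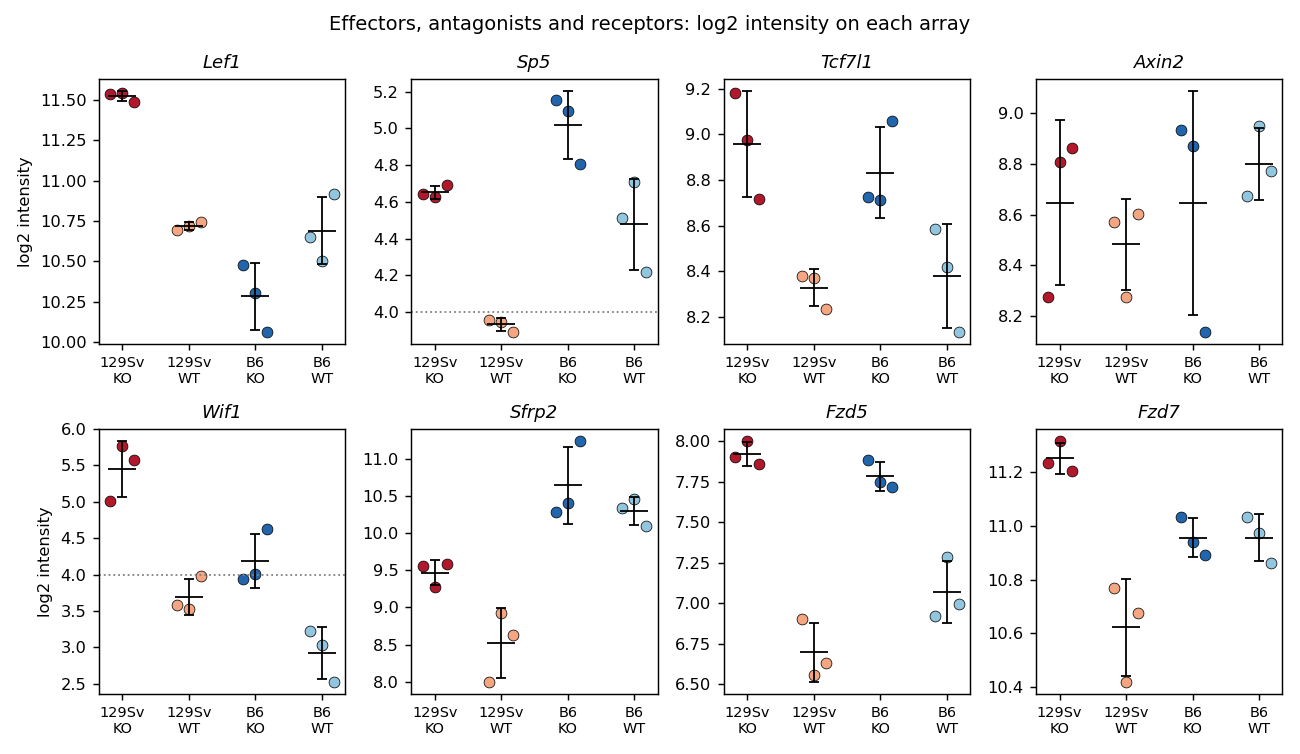
Log2 intensity of 8 Wnt genes on each of the 12 arrays, by group, with the mean and SD of 3 arrays as black lines and a log2 value of 4 dotted where the axis reaches it; each panel has its own scale. Lef1 and Fzd7 are high in 129Sv knockouts, at log2 differences of 0.80 and 0.63 there against -0.41 and -0.0012 in B6, Fzd5 is higher in both knockouts, at 1.22 and 0.71, and the Axin2 groups overlap.

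The TCF/LEF letters CTTTGAT or CTTTGAA, searched on both strands, stood in 4 of 43 promoters (9.3%) of the 35 Wnt genes with an entry, those of Dkk1, Sp5, Wnt11 and Wnt5b, against 2842 of 32851 promoters (8.65%) of all genes. The core letters of the DMRT1 motif, ACATTGT or its reverse complement ACAATGT, stood in 1 of the 43 (2.33%), that of Wnt16, against 974 of 32851 (2.96%). Both shares were near those of all promoters. Wnt promoters had a median of 67.3% G and C and 26 CG pairs, against 52.7% and 7 over all promoters. The Sp5 promoter is shown for its TCF/LEF letters, in capitals; it lies at chr2:70474673-70474972 of GRCm38.p6 on the plus strand in the RefSeq table and has 45.0% G and C and 6 CG pairs. A match to letters is a description and does not show that a factor binds.
Sp5: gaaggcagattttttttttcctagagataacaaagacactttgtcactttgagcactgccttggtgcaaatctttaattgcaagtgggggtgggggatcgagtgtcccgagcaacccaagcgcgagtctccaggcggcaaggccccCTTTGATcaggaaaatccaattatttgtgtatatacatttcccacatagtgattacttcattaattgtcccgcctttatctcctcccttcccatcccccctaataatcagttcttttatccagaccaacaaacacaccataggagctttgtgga

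The knockout effect differed between the strains for Lef1 alone among the 40 tested Wnt genes, with 1.31% of all tested genes called, 1.12% with the higher and 0.196% with the lower effect in 129Sv. Its effect in 129Sv minus that in B6 was 1.21 ± 0.17 on the log2 scale (SE, limma adjusted p = 0.00314). Fzd7 (0.63), Dkk3 (-0.84), Wnt4 (-0.95) and Rspo1 (1.29) came next, with adjusted p of 0.0503, 0.0569, 0.0605 and 0.0796. Wnt4 passed without B6 wild-type replicate 1 (-1.06, adjusted p = 0.044). The count of 1 became 3 without B6 knockout replicate 1, and 2 without B6 wild-type replicate 1 or 3. The effects of Rspo2, Rspo4, Wif1 and Fzd5 differed between strains by -0.50 ± 0.44, 0.04 ± 0.59, 0.49 ± 0.38 and 0.51 ± 0.23, none of which passed (adjusted p = 0.587, 0.978, 0.543 and 0.285).

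Several Wnt genes were called between the strains in both genotypes, Fzd7 in opposite directions. Among wild types 3 Wnt genes were higher and 7 lower in 129Sv than in B6, 25% of the 40. Of all tested genes 16.1% were called, 10.9% higher and 5.19% lower. Among knockouts 8 were higher and 8 lower, 40% of the 40. This was near the 34.1% of all tested genes, 20.3% higher and 13.8% lower. Arrays of the strains did not overlap for 20 of the 40 in knockouts and 19 in wild types. These shares of 50% and 47.5% were near the 43.8% and 40.7% of all tested genes. On the same arrays all 6 tested germ cell genes and 6 of 7 pluripotency genes were higher in 129Sv knockouts than in B6 knockouts, and 3 of 4 fetal Leydig cell genes and 3 of 7 Sertoli cell markers were lower. Between wild types none of the germ cell, Leydig or Sertoli genes passed in the limma fit, and of the pluripotency genes L1td1 was lower in 129Sv. Among those germ cell, Leydig and Sertoli genes 4, 0 and 1 had an unadjusted p under 0.05, and the part of these markers in the Wnt results was not tested. The 10 calls in wild types became 5 without 129Sv wild-type replicate 2 and 6 without B6 wild-type replicate 2. The median log2 difference of the tested Wnt genes was -0.17 in wild types and -0.12 in knockouts, against 0.06 and 0.03 over all tested genes. These comparisons use the same arrays as the knockout comparisons, and the last number of the sample titles runs from 1 to 6 in B6 and from 7 to 12 in 129Sv, so if it marks an order of processing, that order and strain cannot be told apart.

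Sfrp2 was 2.26-fold lower in 129Sv knockouts than in B6 knockouts and 3.43-fold lower in 129Sv wild types than in B6 wild types, log2 differences of -1.18 ± 0.24 (SE, limma adjusted p = 0.00212) and -1.78 ± 0.24 (adjusted p = 0.000237). No 129Sv array reached the lowest B6 array, 764 against 1096. Sfrp1, a related antagonist, gave 1946.8, 1957 and 1946.3 in 129Sv knockouts against 2567, 3384 and 3534 in B6 knockouts, and 2194, 2072 and 1886 in 129Sv wild types against 2567, 2455 and 3276 in B6 wild types. Its differences were -0.68 ± 0.13 (adjusted p = 0.00123) and -0.42 ± 0.13 (adjusted p = 0.0394), and the wild-type call was lost without any of 6 arrays, including every 129Sv wild type (adjusted p = 0.0502 to 0.162). Rspo2 and Rspo4 were higher in 129Sv for both genotypes, by 1.26 ± 0.31 and 1.32 ± 0.42 in knockouts (adjusted p = 0.00639 and 0.0241) and by 1.76 ± 0.31 and 1.28 ± 0.42 in wild types (adjusted p = 0.00166 and 0.0488). Fzd9 was also higher in both, by 0.83 ± 0.20 in knockouts (adjusted p = 0.00586) and by 1.08 ± 0.20 in wild types (adjusted p = 0.00246). The Rspo4 call in wild types was lost without any of 8 arrays (0.95 to 1.38, adjusted p = 0.0528 to 0.205), and that in knockouts without 129Sv knockout replicate 3 or B6 knockout replicate 2 (adjusted p = 0.0789 to 0.127). With values under 16 set to 16 the knockout differences were 0.02 for Rspo2 and 0.60 for Rspo4, and neither passed (adjusted p = 0.959 and 0.274).

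By their chosen probe sets, Fzd4 and Fzd2 were lower in 129Sv in both genotypes and Fzd6 in wild types, while Fzd9 was higher in both. Fzd4, the receptor of the ligand norrin, gave 359, 342 and 389 in 129Sv knockouts against 637, 479.9 and 419.7 in B6 knockouts, and 338, 332 and 298 in 129Sv wild types against 525, 524 and 479 in B6 wild types. The strains did not overlap in either genotype, with differences of -0.48 ± 0.15 (SE, limma adjusted p = 0.0276) and -0.66 ± 0.15 (adjusted p = 0.00995). The knockout call was lost without 129Sv knockout replicate 1 or 2 or B6 knockout replicate 1 (adjusted p = 0.0626 to 0.128). A second probe set of Fzd4 differed by 0.06 in knockouts and -0.10 in wild types, and with the mean of all its probe sets the knockout difference was -0.07 (adjusted p = 0.66). Fzd6 gave 82.2, 102 and 75.6 in 129Sv knockouts against 119, 143 and 67.7 in B6 knockouts, which overlapped, and 71.3, 49.7 and 90.1 in 129Sv wild types against 149, 165 and 128 in B6 wild types, which did not. The wild-type difference of -1.10 ± 0.27 passed (adjusted p = 0.0133), though not without replicate 2 of either wild-type group (adjusted p = 0.0548 to 0.0786). Fzd2 was lower in 129Sv, with differences of -0.44 ± 0.13 in knockouts (adjusted p = 0.0162) and -0.97 ± 0.13 in wild types (adjusted p = 0.00019). The other 2 probe sets of Fzd2 differed the other way, by 0.55 and 0.15 in knockouts and 0.31 and 0.14 in wild types, and with the mean of its probe sets the wild-type difference was -0.17 (adjusted p = 0.362). Fzd7 was higher in 129Sv among knockouts, by 0.30 ± 0.10 (adjusted p = 0.0398), and lower among wild types, at -0.33 ± 0.10 (adjusted p = 0.0403). Both Fzd7 calls were lost without single arrays, the knockout one without any of 6 (adjusted p = 0.0533 to 0.104) and the wild-type one without any of 7 (adjusted p = 0.0513 to 0.186). With the mean of its probe sets the differences were 0.17 and -0.15 (adjusted p = 0.185 and 0.33). The other probe set of Fzd7 read only 4.20 to 5.57 over the arrays, so that mean draws the differences toward those of a signal under 16.

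Among knockouts, Lef1, Wif1, Rspo1 and Wnt6 were further genes higher in 129Sv, and Wnt4, Dkk3, Tcf7l2 and Lrp6 further genes lower. Lef1 was 2.36-fold higher in 129Sv knockouts than in B6 knockouts, at 1.24 ± 0.12 (SE, limma adjusted p = 4.99e-06), whereas the wild types differed by 0.03 ± 0.12 (adjusted p = 0.901). Rspo1 was 2.05-fold higher, at 1.04 ± 0.24 (adjusted p = 0.00448), and Wif1 2.39-fold higher, at 1.26 ± 0.27 (adjusted p = 0.0027). Wnt4 was 1.89-fold lower in 129Sv knockouts, at -0.92 ± 0.16 (adjusted p = 0.000709). The values of Dkk3 were 239.9, 203 and 244 in 129Sv knockouts against 329.9, 369 and 392 in B6 knockouts, separate groups that differed by -0.67 ± 0.14 (adjusted p = 0.00265). A second probe set of Dkk3 differed by only -0.19 between knockouts, with overlapping groups. In wild types Dkk3 gave 317, 302 and 269 in 129Sv against 245, 262 and 279 in B6, which overlapped. Tcf7l2 gave 862, 1024 and 768 in 129Sv knockouts against 1296, 1202 and 1219 in B6 knockouts, and 1046, 746 and 1025 in 129Sv wild types against 1297, 1399.5 and 1337 in B6 wild types. It was lower in 129Sv for both genotypes, at -0.50 ± 0.14 (adjusted p = 0.0146) and -0.53 ± 0.14 (adjusted p = 0.0191), and lost the call without 129Sv knockout replicate 3 in knockouts (adjusted p = 0.0718) and without replicate 2 of either group in wild types (adjusted p = 0.0665 to 0.099). With the mean of its 4 probe sets the differences were -0.32 and -0.79 (adjusted p = 0.378 and 0.0609).

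Wnt6, a ligand of epithelia whose probe set can match other transcripts, gave 1599.9, 1454 and 1609.6 in 129Sv knockouts against 1362, 1161 and 1280.2 in B6 knockouts, and 1461, 1488 and 1519.5 in 129Sv wild types against 1317, 1199 and 1121 in B6 wild types. The strains were separate in both genotypes, at 0.30 ± 0.10 in knockouts (SE, limma adjusted p = 0.0399) and 0.30 ± 0.10 in wild types (adjusted p = 0.0626). Lrp6, a Wnt coreceptor, gave 1326, 1284 and 1230.2 in 129Sv knockouts against 1426, 1567 and 1940.0 in B6 knockouts, at -0.35 ± 0.13 (adjusted p = 0.0441). In wild types it gave 1424, 1251 and 1399 in 129Sv against 1648, 1349 and 1650.3 in B6, which overlapped. The knockout calls of Wnt6 and Lrp6 were lost without any of 6 and any of 9 arrays (adjusted p = 0.0541 to 0.147 and 0.0513 to 0.17), and that of Fzd2 without 129Sv knockout replicate 1 (adjusted p = 0.0761). Second probe sets went the other way between knockouts, at -0.10 for Wnt6 and 0.31 for Lrp6, and with the mean of probe sets these differences were 0.10 and -0.02 (adjusted p = 0.502 and 0.899). Probe sets of Wnt5a disagreed between the strains, since 1 of its 4 gave 949 to 1134 on the 129Sv arrays against 2423 to 3396 on the B6 arrays, with differences of -1.43 in knockouts and -1.59 in wild types, and another differed by 0.11 and 0.05.

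**Figure D4:**
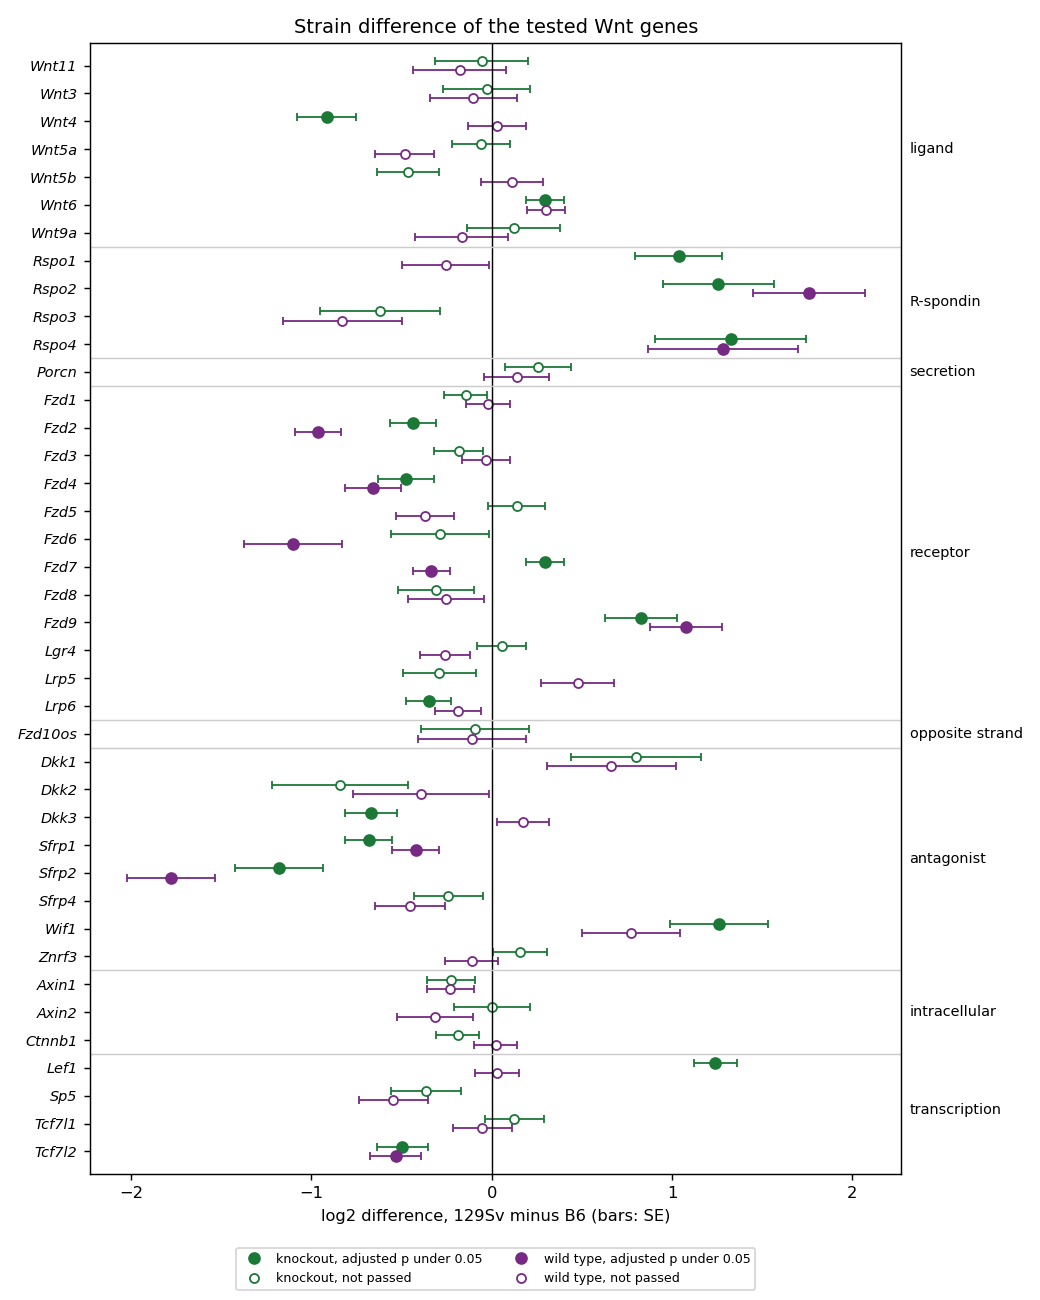
Log2 difference between 129Sv and B6 testes for the 40 tested Wnt genes, with knockouts in green above wild types in purple for each gene and bars for the SE of the limma fit (3 arrays a group). Filled points passed an adjusted p under 0.05; Sfrp2 lies to the left in both genotypes, at -1.18 in knockouts and -1.78 in wild types, while Lef1 lies at 1.24 in knockouts and at 0.03 in wild types.

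Other genes of the pathway, from the β-catenin destruction complex, Dishevelled, planar polarity, the TLE corepressors and Wnt transport, were tested as a list. Of 46 tested, 3 were higher and 0 lower in 129Sv knockouts, and 2 were higher and 1 lower in B6 knockouts, shares of 6.52% in each strain against the 8.31% and 7.9% of all tested genes. At an unadjusted p under 0.05 there were 12 and 6, with 21% and 24.8% of all tested genes. Rnf43, the ubiquitin ligase that removes Frizzled and is itself a Wnt target, gave 26.0, 31.1 and 22.8 in 129Sv knockouts against 13.5, 8.73 and 15.03 in 129Sv wild types, and 28.6, 26.6 and 70.7 in B6 knockouts against 11.2, 14.8 and 12.4 in B6 wild types. It was higher in both, at 1.12 ± 0.33 (SE, limma adjusted p = 0.0484) and 1.57 ± 0.33 (adjusted p = 0.00894), and highest on B6 knockout replicate 3. Only knockout arrays of Rnf43 reached 16, so it passed the filter through the groups in which it was high. Its calls are a description, and no fit with values under 16 set to 16 is given for it. Dact3, a Dishevelled antagonist, and the corepressor Tle4 were higher in 129Sv knockouts, by 0.90 ± 0.20 (adjusted p = 0.00932) and 0.49 ± 0.11 (adjusted p = 0.00983). In B6 knockouts the corepressor Tle2 was higher, by 0.94 ± 0.23 (adjusted p = 0.0201), and the ubiquitin ligase gene Rnf138 lower, at -0.80 ± 0.14 (adjusted p = 0.00278). None of the 46 differed between the strains in its knockout effect past the threshold in the limma test, and 8 did at an unadjusted p under 0.05, with 16.3% of all tested genes.

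Known Wnt targets were taken as a list of 23 genes, of which 20 had a probe set used here and 16 were tested. Of these 16, 4 (Lef1, Sp5, Axin2 and Znrf3) are also among the genes above. In 129Sv knockouts 6 were higher, Ccnd1, Lef1, Msx1, Rnf43, Sp5 and Tnfrsf19, and Msx2 was lower, 43.8% of the 16 against 8.31% of all tested genes. In B6 knockouts 3 were higher, Ccnd1, Nr0b1 and Rnf43, 18.8% against 7.9%. The list was chosen with earlier results of these data known, and Rnf43 reached 16 on knockout arrays alone. Both shares therefore describe the listed genes and are no independent test. The cyclin gene Ccnd1 was higher in both strains, at 704, 811 and 743 in 129Sv knockouts against 493, 447 and 460.3 in 129Sv wild types, and 878, 996 and 826 in B6 knockouts against 513, 767 and 594 in B6 wild types. Its differences were 0.69 ± 0.15 (SE, limma adjusted p = 0.0081) and 0.54 ± 0.15 (adjusted p = 0.0361). The receptor gene Tnfrsf19 was 2.62-fold higher in 129Sv knockouts, at 1.39 ± 0.20 (adjusted p = 0.000449). Nr0b1, a known antagonist of testis development when in excess, was 1.84-fold higher in B6 knockouts, at 0.88 ± 0.19 (adjusted p = 0.00894). On the same arrays 6 germ cell genes summed to 16779 to 20781 in 129Sv knockouts against 16411 to 16550 in 129Sv wild types and to 8029 to 12770 in B6 knockouts against 12761 to 14272 in B6 wild types. Their part in the results was not tested.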

How the data were processed

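RNA of 12 testis samples was hybridised to Affymetrix arrays. The deposited table holds 1 intensity for each probe set and array, made with GCRMA per the submitters' processing notes, and the sources used here give no version or settings for it. Because GCRMA normalises arrays to each other, a change common to all genes cannot be seen. Values were linear, so log2 was taken here. Arrays give no counts, and 3 a group limit the precision. Of 45101 probe sets, 34945 matched 1 gene and were used; 932 matched several genes and 9211 none, and 13 controls or probe sets with several gene identifiers were left out. Of the 56 Wnt genes 35 had several probe sets, and the one with the highest mean stood for the gene.

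Genes reaching a log2 of 4 on 3 or more arrays were tested. Means of the 4 groups were modelled on all arrays in limma 3.58.1 (R 4.3.3; lmFit, then eBayes with a trend), and p-values were adjusted by Benjamini-Hochberg over 12726 genes, with a threshold of 0.05. The fit was tested on simulated data. The members, gene lists and tests were chosen with earlier results of these data known. Named are the Wnt genes called in any of 6 comparisons, plus Rspo1, Wnt4, Wnt5a, Ctnnb1, Lef1, Axin2, Lgr5 and Sp5, and called genes of the lists. Promoters came from a RefSeq table of GRCm38.p6. Alternatives were other filters and probe set rules, quantile normalisation, median centring, a floor at 4, no variance trend, fewer groups, the replicate number as a block, 2 covariates, each array left out and, chosen after seeing the data, the 2 arrays of the highest Actb ratio left out. Knockout and wild-type samples of the same number did not deviate together (r from -0.47 to 0.01), and the numbers were not taken to pair them. In B6 the titles of replicates 1 and 2 share a number between knockout and wild type, whose meaning the labels do not give; r was 0.0076 and 0.0027 for these pairs.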

Additional observations from a re-analysis of the deposited data

Results flagged for a closer look

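Lef1 was the tested Wnt gene whose knockout effect differed between the strains past the threshold. The effect in 129Sv minus that in B6 was 1.21 on the log2 scale (limma adjusted p = 0.00314), with all 3 knockout arrays above all 3 wild-type arrays in 129Sv and all 3 below in B6. Dmrt1, the targeted gene, also differed, by 1.08 (adjusted p = 0.045), and lost this call in 18 of 23 alternatives (adjusted p from 0.0284 to 0.137 over them). Groups of 3 arrays were too small for a test of single outlying arrays.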

How the results depend on the processing

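Of the 60 calls of Wnt genes over the 6 comparisons, 28 held in every alternative in which the gene was tested, and 32 were lost in at least 1. Those alternatives include the title number 11 as a covariate, which leaves 129Sv wild-type replicate 2 alone in its group. The number of called Wnt genes in 129Sv knockouts was 7 to 14 with single arrays left out. In B6 knockouts it was 10 without the variance trend and 3 to 9 with single arrays left out. For the difference of the effects it was 2 with the mean of all probe sets, 2 with median centring, 4 with a floor at 4, 2 without the trend and 1 to 3 with single arrays left out. For the average effect it was 8 when the filter asked for a log2 value of 6, which left 30 Wnt genes to test, and 10 to 16 with single arrays left out; between the strains it was 5 to 15 in wild types and 11 to 17 in knockouts. Signs turned for uncalled values close to 0 and for Fzd2: with the mean of all probe sets Fzd2 between knockouts of the strains was 0.0893, Wnt5a in 129Sv knockouts -0.0845, Ctnnb1 in B6 knockouts -0.2871 and the Ctnnb1 difference of effects 0.1333. With the Actb ratio as a covariate Axin2 and Ctnnb1 in B6 knockouts were 0.237 and -0.0657. With single arrays left out, Ctnnb1 and Wnt5a in 129Sv ranged from -0.2056 to 0.0261 and from -0.0576 to 0.26, turning without knockout replicate 2, and Axin2 and Ctnnb1 in B6 from -0.2948 to 0.1011 and from -0.0163 to 0.19, turning without knockout replicate 3; without that array and 129Sv knockout replicate 1 they were again 0.1011 and -0.0163. The causes were not tested. With the replicate number as a block the counts were 12, 6 and 1 for the knockouts in 129Sv and B6 and their difference, 13 for the average, and 8 and 13 between the strains in wild types and knockouts; that fit also joins the B6 replicates 1 and 2 that share a number in their titles. Signals near an intensity of 16 limit Rspo2, Wif1, Wnt3, Sp5 and Fzd10os.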
